A study of Mus musculus with 9 samples.

Results

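Liver RNA from Swiss mice was examined for 10 genes that encode apolipoproteins and the proteins that assemble or remodel lipoprotein particles. The genes were Apoa1, Apoa2, Apoa4, Apoa5, Apob, Apoc3, Apoe, Mttp, Lcat and Pltp. They were chosen by symbol from a table of 25781 genes, each symbol matched 1 entry, and all 10 were among the 20145 genes tested. Mice aged 10 to 12 weeks formed 3 groups of 3 libraries. In the first group β-CYP at 40 mg/kg was combined with 50 µg/kg of sodium selenite (Na2SeO3), the second received β-CYP alone at 40 mg/kg, and the third was the control. The submitters call the group given β-CYP alone the injury group and the group given both agents the repair group. Their labels leave β-CYP unexpanded and mention no genetic alteration in any group. No group was given selenite alone, so the action of selenite without β-CYP was not measured. Whether each library stands for its own animal is not stated in the labels, and p-values therefore measure only the spread between libraries, which may be technical.

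Lipoproteins carry triglyceride and cholesterol through the blood inside a shell of phospholipid and apolipoproteins. The liver builds very low density lipoprotein (VLDL) around apolipoprotein B (Apob), to which the microsomal triglyceride transfer protein (Mttp) adds lipid while the chain is being made. High density lipoprotein (HDL) forms when Apoa1 takes up cholesterol and phospholipid exported by the transporter Abca1. Lcat then esterifies that cholesterol, and Pltp moves phospholipid between particles. Apoc3 slows the hydrolysis of triglyceride-rich particles by lipoprotein lipase, Apoa5 promotes it, and Apoe is the ligand through which the liver takes up remnant particles.

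Each value below is a scaled count, which is the number of reads of a gene in a library divided by a factor for that library. The factors make the typical gene equal between libraries, so every difference is relative to the typical gene. Library totals ran from 28630269 to 36029560 reads. Reads of the 10 genes made up 2.50% to 2.78% of all reads with selenite + β-CYP, 2.54% to 2.57% with β-CYP and 2.22% to 2.55% in controls. Control replicate 2 stood apart, because 1 entry, AY036118, took 5.04% of its reads and between 0.0807% and 0.220% in the other 8 libraries. Hepatocyte RNA dominated: summed scaled counts of 7 hepatocyte markers, albumin (Alb) among them, were 2662790 to 2699090 with selenite + β-CYP, 3337520 to 3444090 with β-CYP and 2914320 to 3013810 in controls. Alb made up most of each of these sums, and not all of the other hepatocyte markers followed its order of groups. Summed markers of other cell types also moved with the groups. Kupffer cell markers (9 genes) ran from 14786 to 15025 with selenite + β-CYP, from 11661 to 11749 with β-CYP and from 12095 to 12415 in controls. With β-CYP against control, 3 of these 9 were called lower and 6 were not called. Of the 3, Cd163 averaged 918 with selenite + β-CYP, 152 with β-CYP and 447 in controls. Neutrophil markers (5 genes) ran from 440 to 568, from 371 to 417 and from 62.7 to 70.9 in the same order of groups, and erythroid markers (3 genes) from 16352 to 16739, from 19265 to 19992 and from 22360 to 22572. Adipocyte markers (4 genes) ran from 34.1 to 47.0, from 5.55 to 19.8 and from 35.4 to 44.3, and 3 of the 4, Adipoq among them, were at 0 in all β-CYP libraries. Pancreatic acinar markers (7 genes) summed to between 25174 and 26278 in each selenite + β-CYP library, against 7.28 to 22.2 with β-CYP and 5.03 to 19.2 in controls, where 4 of the 7 were at 0 in each of these 2 groups. In bulk tissue, fewer cells of a type and less RNA per cell cannot be told apart, and the part of these marker differences in the results below was not tested.

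The 10 genes did not move together. Against control, 5 of the 10 genes were higher with β-CYP (Apoa4, Pltp, Apoa1, Lcat and Apoa2), Apoa5 was lower, and Apob, Apoc3, Apoe and Mttp did not pass the test. The test was a limma model of log2(scaled count + 1) over all 9 libraries, with Benjamini-Hochberg adjustment over all genes tested and a two-sided threshold of 0.05. Of all genes tested, 16.3% passed it in this comparison, 7.72% as higher and 8.58% as lower, and of the 5890 genes with a mean of at least 500 scaled counts, a level that the 10 genes also exceed, 32.5% passed. This share is not matched to the level of the 10 genes, which all lie far higher except Pltp. Spread between libraries was smaller at high levels. In controls its median, as SD over mean, was 8.12% from 100 to 1000 scaled counts, 3.70% from 1000 to 10000 and 1.66% above. With selenite + β-CYP against β-CYP, Apoa5 was higher and Apoa1, Apoa2, Apoa4, Apob and Lcat were lower, where 23.9% of all genes and 46.2% of those at 500 or more passed. With selenite + β-CYP against control, Apoa4, Pltp and Apoa1 were higher and Apoa2 was lower, against a background of 28.9% of all genes and 53.1% of those at 500 or more. The 2 groups did not overlap for 6, 6 and 4 of the 10 genes in these 3 comparisons, where 31.6%, 37.8% and 41.8% of all genes tested did not overlap and 51.4%, 60.1% and 64.4% of those at 500 or more. The median log2 change of the 10 genes was 0.15, -0.05 and 0.09, and that of all genes tested was -0.0013, 0.017 and 0.027. The 3 comparisons share groups of libraries and are not independent of each other. Without control replicate 2, the counts of passing genes were 7, 5 and 5.

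**Figure D1:**
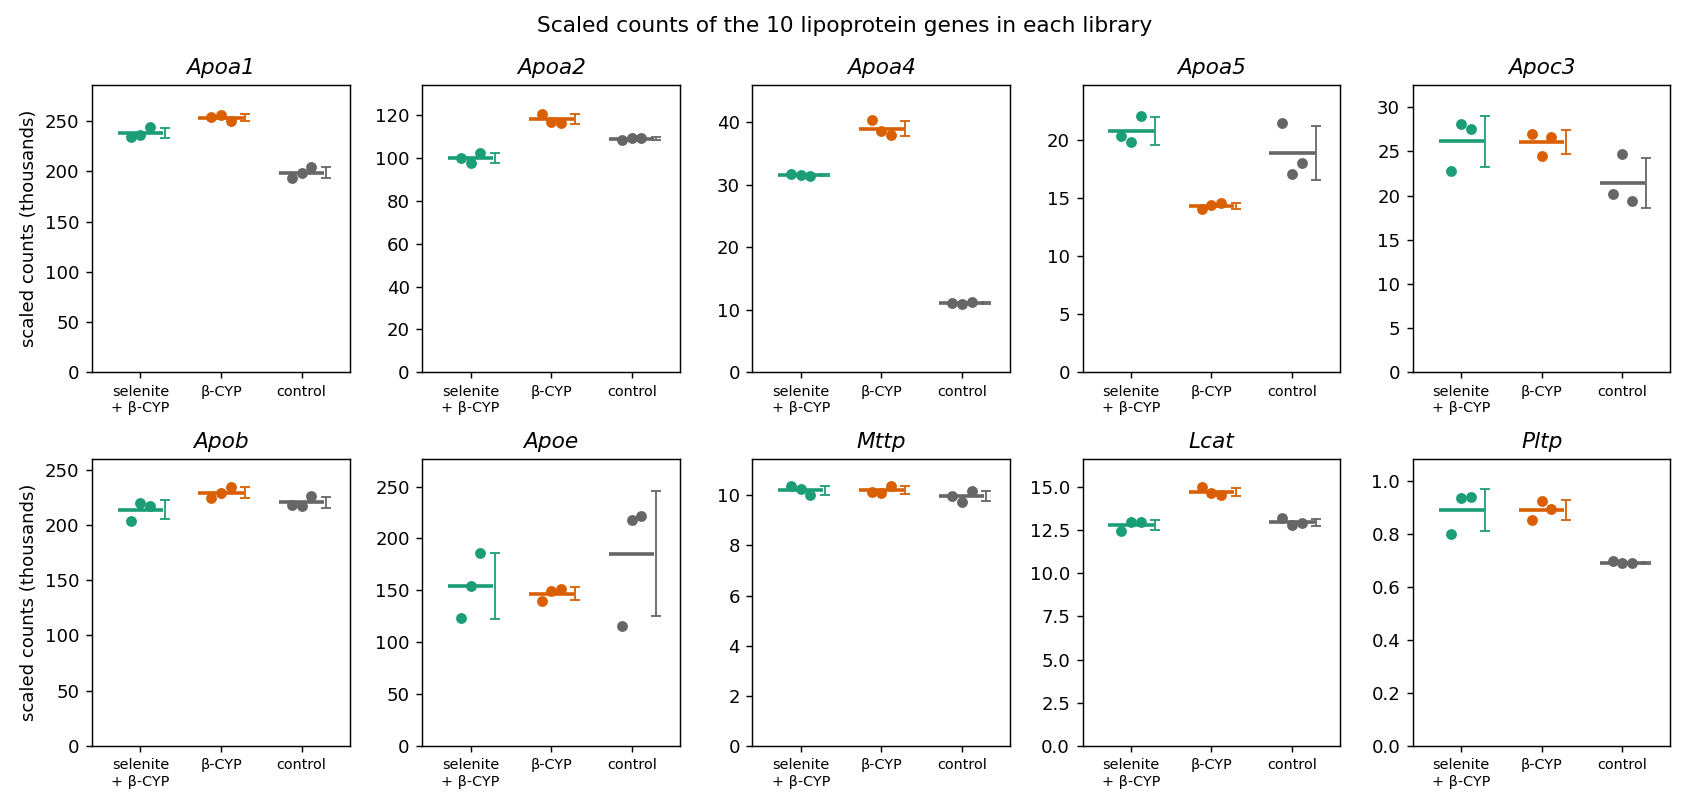
Scaled counts (axes in units of 1000) of each of the 10 genes in the 9 libraries; points are libraries, horizontal lines are group means and bars are ± 1 SD (n = 3 per group), with every axis starting at 0. The control libraries of Apoa4 lie between 10878 and 11242, below all 6 libraries given β-CYP, whereas the Apoe libraries of the control and selenite + β-CYP groups are widely scattered.

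Apoa4 had the largest difference of the 10 genes. Apolipoprotein A-IV is a lipid-binding protein of triglyceride-rich particles and HDL, which the intestine makes in quantity and the mouse liver makes as well. It had 31741, 31601 and 31402 scaled counts with selenite + β-CYP, 40308, 38661 and 37899 with β-CYP, and 10981, 10878 and 11242 in controls. The 3 groups were fully separated, with β-CYP highest and control lowest. Apoa4 was 3.53-fold higher with β-CYP than in controls (log2 change 1.82 ± 0.02 SE, limma adjusted p = 8.58e-11). With selenite + β-CYP it was 0.811 times its β-CYP level (log2 change -0.30 ± 0.02, limma adjusted p = 1.8e-05) and still 2.86-fold above control (log2 change 1.52 ± 0.02, limma adjusted p = 1.92e-10). The reduction relative to β-CYP was -0.18 with libraries scaled to equal totals (limma adjusted p = 0.0455) and did not hold under quantile normalization, where the log2 change was 0.07 (limma adjusted p = 0.135). A pair of transcripts on the other strand overlap exons of Apoa4 in the GENCODE annotation of GRCm38, and the sources used here give no strand setting for the counting. Their reads were few beside those of Apoa4: Gm10680 had 16 reads in the 3 selenite + β-CYP libraries together, 11 in the β-CYP libraries and 0 in controls, and AC116503.1 had 140, 110 and 14. Markers of the enterocyte, the other main source of Apoa4 RNA, summed to between 6640 and 6902 scaled counts with selenite + β-CYP, between 7963 and 8140 with β-CYP and between 7151 and 7170 in controls, mostly from Anpep and Fabp2. Of these 8 markers, Alpi, Rbp2, Sis and Lct were higher and Fabp2 was lower with selenite + β-CYP than in controls. The 4 that were higher had few reads: Alpi averaged 21.1 scaled counts with selenite + β-CYP, 11.3 with β-CYP and 3.67 in controls (limma adjusted p = 0.0172 for selenite + β-CYP against control), and Rbp2 averaged 13.4, 5.48 and 1.01 (limma adjusted p = 0.0281). Sis and Lct averaged 4.40 and 3.42 with selenite + β-CYP and were at 0 in all 3 controls. With β-CYP against control, Anpep alone of the 8 was called, as higher. The part of these markers in the Apoa4 values was not tested.

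Apoa4 lies in a cluster on mouse chromosome 9 with Apoa1, Apoc3 and Apoa5, with no other RefSeq gene between them in GRCm38.p6. Within this cluster, Apoa5 was lower and Apoa4 and Apoa1 were higher with β-CYP than in controls. The 250 bases before the start of the gene are shown for the member with the largest rise (Apoa4), a neighbour with a smaller rise (Apoa1) and the neighbour that fell (Apoa5), all from RefSeq GRCm38.p6 on the plus strand, 5′ to 3′. Capitals mark nuclear-receptor half-site words, which are the consensus AGGTCA and the variants of it that read AGTTCA, or else GGGTCA, or else GGTTCA, on either strand.
Apoa4 (chr9:46240594-46240843): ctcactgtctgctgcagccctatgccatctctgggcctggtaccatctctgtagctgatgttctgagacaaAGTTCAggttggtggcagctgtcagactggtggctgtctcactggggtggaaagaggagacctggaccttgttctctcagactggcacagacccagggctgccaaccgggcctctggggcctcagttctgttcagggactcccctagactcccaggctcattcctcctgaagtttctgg
Apoa1 (chr9:46228380-46228629): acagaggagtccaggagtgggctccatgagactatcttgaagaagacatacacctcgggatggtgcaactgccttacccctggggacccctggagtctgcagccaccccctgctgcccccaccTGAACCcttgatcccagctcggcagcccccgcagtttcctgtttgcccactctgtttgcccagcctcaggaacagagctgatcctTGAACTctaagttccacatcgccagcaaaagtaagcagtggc
Apoa5 (chr9:46268358-46268607): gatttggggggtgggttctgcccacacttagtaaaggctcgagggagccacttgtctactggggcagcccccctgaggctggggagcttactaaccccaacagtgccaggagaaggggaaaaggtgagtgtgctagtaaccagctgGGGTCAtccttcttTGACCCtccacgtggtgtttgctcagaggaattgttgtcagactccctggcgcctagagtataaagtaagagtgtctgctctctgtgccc
Counted from the gene start, the Apoa4 window held AGTTCA at position -179, the Apoa1 window TGAACC at -127 and TGAACT at -42, and the Apoa5 window GGGTCA at -104 and TGACCC at -90. Of 32851 promoter windows of the same length, 38.6% held at least 1 such word and 9.75% at least 2. The Apoa5 window also held TATAAA at -31, a word found, on either strand, in 12.4% of the windows. These matches describe the letters only. For Apoc3 no window was used here.

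Apoa1, the main protein of HDL, followed the order of Apoa4 with a much smaller difference. It had 234410, 236063 and 244594 scaled counts with selenite + β-CYP, 254521, 256560 and 249880 with β-CYP, and 193673, 198653 and 204182 in controls. No 2 groups overlapped. It was 1.28-fold higher with β-CYP than in controls (log2 change 0.35 ± 0.02, limma adjusted p = 4.95e-06) and 1.20-fold higher with selenite + β-CYP than in controls (0.26 ± 0.02, limma adjusted p = 2.04e-05). The first of these was not called under quantile normalization (log2 change 0.11, limma adjusted p = 0.217), and the second became 0.40 with equal totals (limma adjusted p = 3.47e-04) and 0.17 under quantile normalization (limma adjusted p = 0.032). The small deficit with selenite + β-CYP against β-CYP (log2 change -0.09 ± 0.02, limma adjusted p = 0.0191) did not survive the omission of β-CYP replicate 1 or 2 or selenite + β-CYP replicate 1 or 2, and the limma adjusted p reached 0.0709 without β-CYP replicate 2. Its sign turned to 0.04 when libraries were scaled to equal totals and to 0.07 under quantile normalization.

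Ratios of reads between 2 genes within a library are untouched by any scaling factor between libraries. The ratio of Apoa4 to Apoa1 reads was 0.128 to 0.135 with selenite + β-CYP, 0.151 to 0.158 with β-CYP and 0.0548 to 0.0567 in controls, so the steeper difference of Apoa4 appeared in every library. These 2 genes also shared a profile, with a Pearson correlation of their log2 values of 0.98 over the 9 libraries, which is a description that rests on the differences between groups. After the group means were removed it was 0.31.

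With β-CYP against control, Apoa5 ran the other way. Its product, made almost only in the liver, is present in blood in small amounts and speeds the clearance of triglyceride. It had 20357, 19796 and 22104 scaled counts with selenite + β-CYP, 14053, 14405 and 14534 with β-CYP, and 21480, 17072 and 18029 in controls. All 3 β-CYP libraries were below all 6 others, and the other 2 groups overlapped. Apoa5 fell to 0.763 times control with β-CYP (log2 change -0.39 ± 0.08, limma adjusted p = 0.00596) and was 1.45-fold higher with selenite + β-CYP than with β-CYP (0.53 ± 0.08, limma adjusted p = 6.24e-04). Both calls held in all 20 alternative settings tried. With selenite + β-CYP against control the log2 change was 0.14, with a 95% interval from -0.03 to 0.31 (limma adjusted p = 0.196). It passed without control replicate 1, the highest control, at 0.24 (limma adjusted p = 0.00709), and under quantile normalization, at 0.45 (limma adjusted p = 0.00118), and with equal totals it was 0.28 (limma adjusted p = 0.0668). The ratio of Apoa5 to Apoa4 reads separated all 3 groups, at 0.626 to 0.704 with selenite + β-CYP, 0.349 to 0.383 with β-CYP and 1.57 to 1.96 in controls. An antisense transcript that overlaps Apoa5 exons, listed as AC164105.4, had at most 2 reads in any library.

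Apoc3, the inhibitor of triglyceride clearance and the fourth gene of the cluster, had 22792, 28117 and 27515 scaled counts with selenite + β-CYP, 26999, 24476 and 26594 with β-CYP, and 20151, 24683 and 19389 in controls. Control replicate 2 was the highest control and lay within the range of both groups given β-CYP. The log2 change with β-CYP against control was 0.29 ± 0.10, with a 95% interval from 0.06 to 0.51 (limma adjusted p = 0.0855), and with selenite + β-CYP against control it was also 0.29 ± 0.10 (limma adjusted p = 0.0566). Neither passed, but both did without control replicate 2, at 0.40 in each comparison (limma adjusted p = 0.0205 and 0.0117), and the second also did without selenite + β-CYP replicate 1 (0.39, limma adjusted p = 0.0198). Both also passed with equal totals, at 0.30 with β-CYP (limma adjusted p = 0.042) and 0.43 with selenite + β-CYP (limma adjusted p = 0.00352), and under quantile normalization, at 0.37 (limma adjusted p = 0.0377) and 0.67 (limma adjusted p = 8.96e-04). The second passed as well when only genes averaging 10 or more scaled counts were kept. Control replicate 2 is the library in which AY036118 took 5.04% of the reads, and whether that bears on its Apoc3 value was not tested. Between selenite + β-CYP and β-CYP the log2 change was 0.0016 and its 95% interval ran from -0.22 to 0.23.

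**Figure D2:**
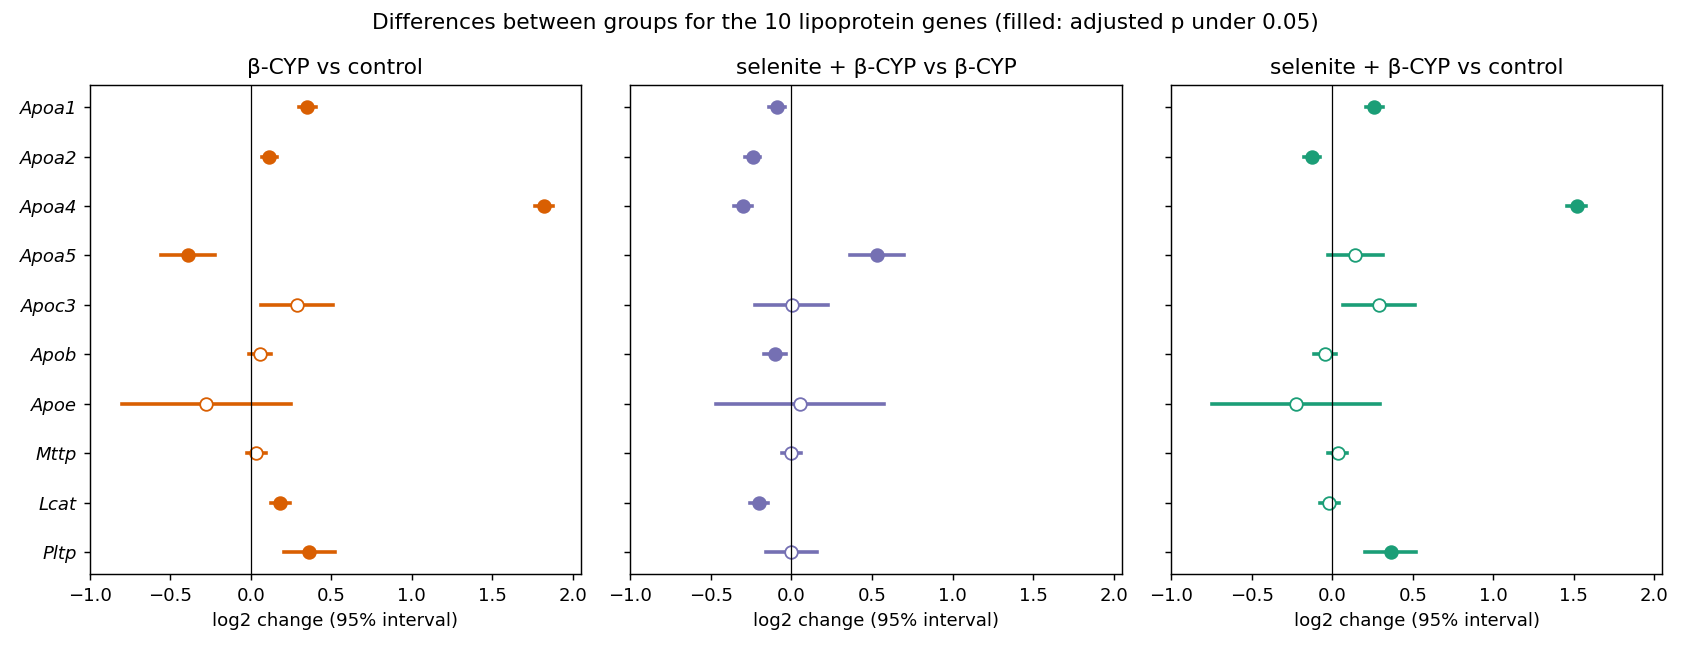
Log2 change of each of the 10 genes (horizontal axis) in the 3 comparisons, with 95% intervals from the limma fit; filled points passed the adjusted threshold and open points did not. Apoa4 stands at 1.82 and 1.52 in the comparisons with control, Apoa5 is the single filled point below 0 in the first panel and the single one above 0 in the second, and the intervals of Apoe are the widest.

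Apoa2, the second protein of HDL, ended below control when selenite was added. It had 100294, 97610 and 102294 scaled counts with selenite + β-CYP, 120917, 117150 and 116551 with β-CYP, and 108470, 109596 and 109461 in controls. No 2 groups overlapped, and control lay between the others. It was 1.08-fold higher with β-CYP than in controls (log2 change 0.11 ± 0.02, limma adjusted p = 0.00459), and with selenite + β-CYP it was lower than with β-CYP (-0.24 ± 0.02, limma adjusted p = 2.36e-05) and lower than in controls (-0.13 ± 0.02, limma adjusted p = 0.00146). All 3 calls were lost when libraries were scaled to equal totals, where the comparison of selenite + β-CYP with control turned to 0.01 (limma adjusted p = 0.909), and that comparison stood at 0.00021 under quantile normalization. The ratio of Apoa1 to Apoa2 reads did not depend on scaling and separated the 3 groups, at 2.34 to 2.42 with selenite + β-CYP, 2.10 to 2.19 with β-CYP and 1.79 to 1.87 in controls.

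Lcat, which esterifies the cholesterol of HDL, was higher with β-CYP than in controls. It had 12441, 12999 and 12949 scaled counts with selenite + β-CYP, 15004, 14640 and 14512 with β-CYP, and 13183, 12786 and 12923 in controls. The β-CYP libraries were above all 6 others, which overlapped. Lcat was 1.14-fold higher with β-CYP than in controls (log2 change 0.18 ± 0.03, limma adjusted p = 9.13e-04). With selenite + β-CYP it was lower than with β-CYP (-0.20 ± 0.03, limma adjusted p = 3.31e-04) and differed from control by -0.02, with a 95% interval from -0.08 to 0.04 (limma adjusted p = 0.643). The comparison of selenite + β-CYP with β-CYP was lost with equal totals (-0.08, limma adjusted p = 0.391) and turned to 0.0096 under quantile normalization. Under the latter, Lcat was higher with selenite + β-CYP than in controls (0.22, limma adjusted p = 1.74e-04).

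Pltp, the phospholipid transfer protein, had the lowest level per kb of exon of the 10 genes. It had 799, 936 and 937 scaled counts with selenite + β-CYP, 851, 925 and 893 with β-CYP, and 695, 688 and 689 in controls. All 6 libraries given β-CYP were above all 3 controls, and the 2 groups given β-CYP overlapped. Pltp was 1.29-fold higher than control in each of them, with a log2 change of 0.36 ± 0.07 in both comparisons (limma adjusted p = 0.0059 with β-CYP and 0.00339 with selenite + β-CYP). These calls held in all 20 alternative settings. Between selenite + β-CYP and β-CYP the log2 change was -0.0011, with a 95% interval from -0.16 to 0.16. Exons of Pltp share 495 bases with those of Ctsa, a lysosomal protease gene on the other strand. Ctsa averaged 3326 ± 16.5 scaled counts with selenite + β-CYP, 3685 ± 243 with β-CYP and 3613 ± 42.2 in controls (SD, n = 3 each), and its log2 change with β-CYP against control was 0.03 (limma adjusted p = 0.764).

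Apob and Mttp, the core of VLDL assembly, had log2 changes of 0.10 or less in size with the deposited scaling, and several of these depended on the scaling. Apob, the structural protein of VLDL, had 203634, 220054 and 217376 scaled counts with selenite + β-CYP, 224667, 228419 and 234735 with β-CYP, and 217857, 217460 and 225897 in controls. The 3 β-CYP libraries were above the 3 selenite + β-CYP libraries, and both groups overlapped the controls. Against β-CYP, Apob was lower with selenite + β-CYP (log2 change -0.10 ± 0.03, limma adjusted p = 0.036). This call was lost on leaving out any 1 of 6 of the 9 libraries (control replicate 1 or 2, β-CYP replicate 2 or 3, selenite + β-CYP replicate 1 or 3), with a highest limma adjusted p of 0.125 without β-CYP replicate 3, and its sign turned to 0.02 with equal totals and to 0.07 under quantile normalization. With β-CYP against control the log2 change was 0.06 (95% interval -0.01 to 0.13, limma adjusted p = 0.267), and under quantile normalization -0.35 (limma adjusted p = 0.00101). With selenite + β-CYP against control it was -0.05 (95% interval -0.11 to 0.02, limma adjusted p = 0.316), 0.09 with equal totals (limma adjusted p = 0.302) and -0.28 under quantile normalization, where it passed (limma adjusted p = 0.00215).

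Mttp, which loads lipid onto Apob, passed in no comparison with the deposited scaling. It had 10359, 10253 and 9996 scaled counts with selenite + β-CYP, 10137, 10105 and 10377 with β-CYP, and 9978, 9750 and 10154 in controls, and all 3 groups overlapped. Its log2 changes were 0.04 (95% interval -0.02 to 0.09) with β-CYP against control, -0.00061 (-0.06 to 0.06) with selenite + β-CYP against β-CYP and 0.03 (-0.02 to 0.09) with selenite + β-CYP against control, with limma adjusted p of 0.439, 1 and 0.372. Under quantile normalization the second became 0.28 (limma adjusted p = 6.92e-05) and the third 0.30 (limma adjusted p = 3.76e-05), and the third also passed with equal totals (0.17, limma adjusted p = 0.0496). Trmt10a, a tRNA methyltransferase gene whose exons share 457 bases with those of Mttp on the other strand, averaged 220 ± 6.43, 165 ± 4.49 and 180 ± 20.6 scaled counts with selenite + β-CYP, with β-CYP and in controls (SD, n = 3 each).

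Apoe, the ligand for remnant uptake, was set apart by its scatter. It had 123008, 153704 and 185859 scaled counts with selenite + β-CYP, 139888, 149358 and 151105 with β-CYP, and 115701, 217748 and 221899 in controls. Control replicate 1 was below all 6 libraries given β-CYP, and the other 2 controls were above all 6. The coefficient of variation (SD over mean) of Apoe was 20.4% with selenite + β-CYP, 4.11% with β-CYP and 32.5% in controls. Counting error at this depth would give 0.246%, 0.26% and 0.239%, and the median over genes of at least 10000 scaled counts was 2.06%, 1.50% and 1.66%. Apoe itself included, a coefficient at least as high was found for 9 of 324 such genes with selenite + β-CYP, 49 of 390 with β-CYP and 8 of 385 in controls. Its log2 change with β-CYP against control was -0.27 ± 0.23 (95% interval -0.80 to 0.25, limma adjusted p = 0.511), and -0.22 with selenite + β-CYP against control (limma adjusted p = 0.532). Without control replicate 1 both were called, at -0.58 (limma adjusted p = 0.0289) and -0.53 (limma adjusted p = 0.0255). Between selenite + β-CYP and β-CYP the log2 change was 0.05, with a 95% interval from -0.47 to 0.57.

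Another pair of the genes were scattered for their level. Apoc3 had coefficients of 11.2% with selenite + β-CYP, 5.21% with β-CYP and 13.4% in controls, and Apoa5 had 5.80%, 1.74% and 12.3%. The high control of Apoa5 was replicate 1 and that of Apoc3 was replicate 2, so the controls that stood out differed between these 2 genes. Control replicate 1 was also the low control of Apoe. Replicate 1 of selenite + β-CYP was the lowest of its group for both Apoe and Apoc3. At the other end, Apoa4 with selenite + β-CYP had a coefficient of 0.54%, and Apoa2 and Pltp in controls had 0.563% and 0.522%. The coefficient of Pltp there lay below the 3.90% that counting error would give at its depth.

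**Figure D3:**
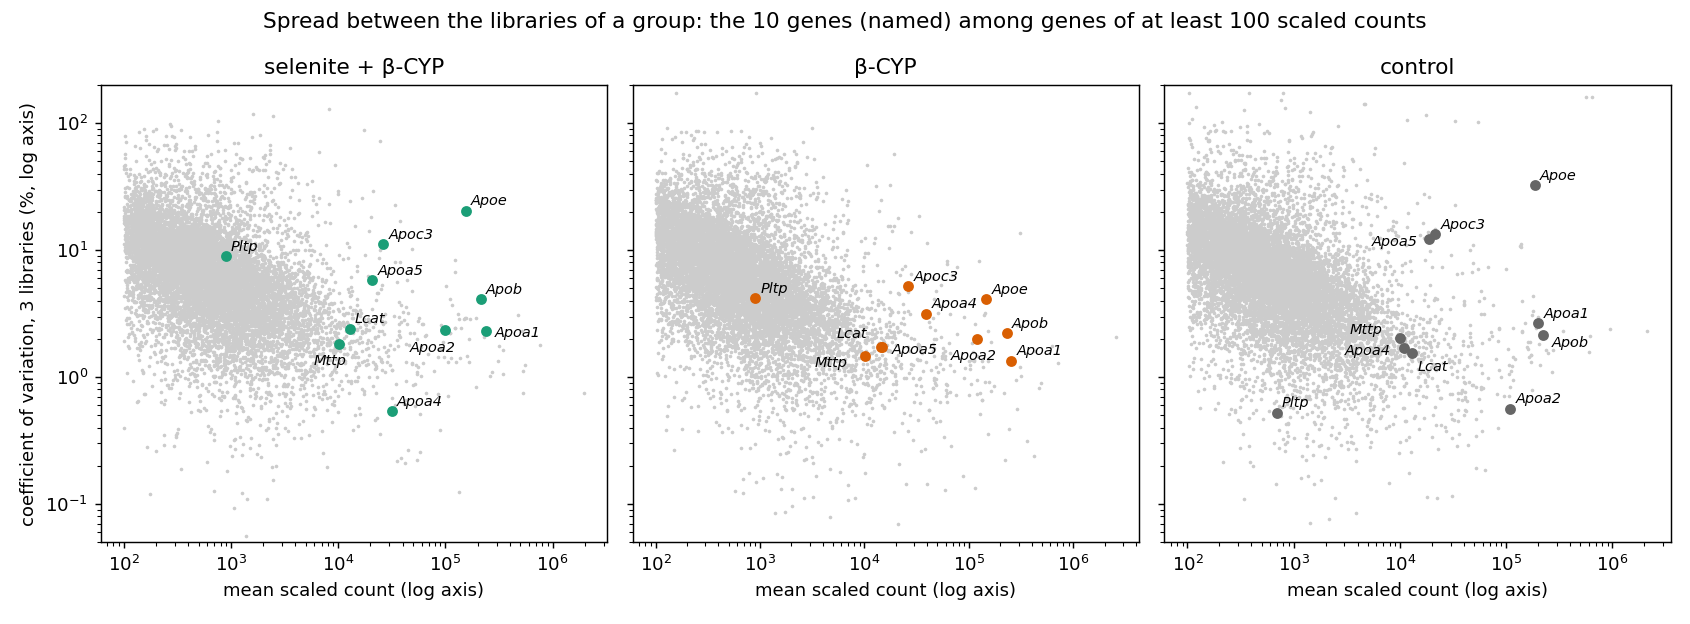
Coefficient of variation over the 3 libraries of a group (percent, log axis) against the mean scaled count (log axis); grey points are genes of at least 100 scaled counts and named points are the 10 genes. Apoe lies high above genes of its level in the control group (32.5%) and with selenite + β-CYP (20.4%), but at 4.11% with β-CYP.

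Albumin, which is made by the same cells, gives a second yardstick that no scaling factor touches. Alb itself was lower with selenite + β-CYP than with β-CYP (log2 change -0.38 ± 0.02, limma adjusted p = 5.33e-07) and higher with β-CYP than in controls (0.25 ± 0.02, limma adjusted p = 1.77e-05). Of the 7 hepatocyte markers, 6 were lower and none higher in the first of these comparisons. In the second the markers were split, with 3 higher (Alb, Ahsg and Arg1), 2 lower (Cps1 and Ass1) and 2 not called. For each Alb read, Apoa1 had 0.120 to 0.125 reads with selenite + β-CYP, 0.0989 to 0.101 with β-CYP and 0.0916 to 0.0942 in controls. Relative to Alb, Apoa1 was thus highest with selenite + β-CYP, whereas in scaled counts it was highest with β-CYP. The ratios of Apoa2, Apoa5, Apob, Mttp, Lcat and Pltp to Alb were also higher in all 3 selenite + β-CYP libraries than in all 3 β-CYP libraries. That of Mttp was 0.00511 to 0.00535 against 0.00394 to 0.00419. Ratios of Apoc3 and Apoe to Alb were not computed. For Apoa4 the ratio was 0.0160 to 0.0164 with selenite + β-CYP, 0.0151 to 0.0157 with β-CYP and 0.00502 to 0.00527 in controls. Such ratios show unequal change between 2 genes and do not say which of them changed.

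Levels were compared between genes as scaled counts per kb of exon. In controls the order was Apoa2 (203307), Apoa1 (160870), Apoe (86584), Apoc3 (21112), Apob (15818), Lcat (9660), Apoa5 (7478), Apoa4 (6079), Mttp (1605) and Pltp (270). Neighbours in this order did not overlap between their libraries. Apoa4 was at place 8 in controls and at place 5 in both groups given β-CYP, where it averaged 17400 with selenite + β-CYP and 21463 with β-CYP per kb, above Apob, Lcat and Apoa5. The top of the order changed with selenite + β-CYP, where Apoa1 (192844) and Apoa2 (186343) overlapped, while Apoa2 was above Apoa1 in all libraries of the other 2 groups. Exon lengths came from an annotation of another build (GRCm38) than the one named by the submitters. Each length took in every annotated exon of a gene, whether or not the liver uses it. An error in length would move all libraries of a gene alike, so the lack of overlap cannot address it.

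**Figure D4:**
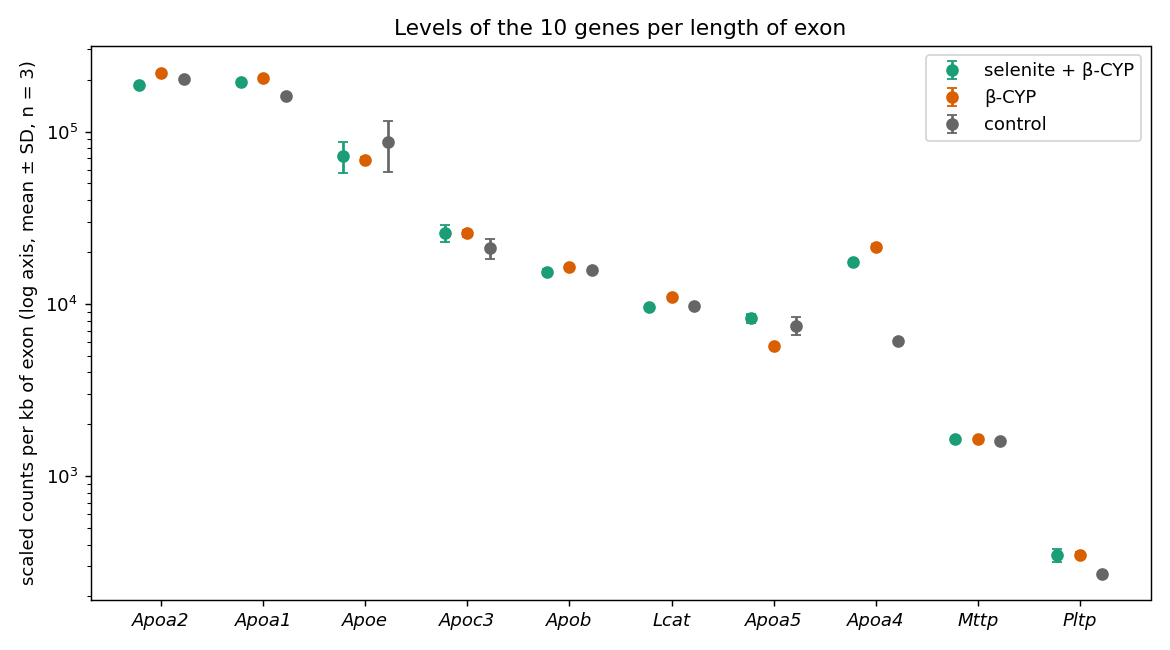
Scaled counts per kb of exon (log axis, mean ± SD, n = 3 libraries per group) for the 10 genes, ordered by their control level. Levels span from 270 per kb for Pltp to 203307 per kb for Apoa2 in controls, and Apoa4 is the gene whose place changes most.

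The genes whose log2 values over the 9 libraries were most like those of Apoa4, the member with the highest moderated F over the 3 groups, were Mt2 (Pearson r = 0.999), Steap4 (0.998) and Il1r1 (0.997), among 10510 genes with a mean of at least 100 scaled counts. Mt2 is a metallothionein that binds zinc and copper, Steap4 is a metalloreductase and Il1r1 is the receptor of interleukin 1. Mt2 averaged 25903 ± 593 scaled counts with selenite + β-CYP, 33235 ± 323 with β-CYP and 6756 ± 50.7 in controls (SD, n = 3 each). For Apob the most alike were Cyyr1 (r = 0.973), Aff4 (0.931) and Pex7 (0.911). The correlations describe 9 points that fall into 3 groups and share their libraries.

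Other genes of lipoprotein metabolism were read from a list of 71 symbols in 6 roles, of which 70 were in the table and 69 were tested. With β-CYP against control, 22 were higher and 19 lower, with selenite + β-CYP against β-CYP 11 were higher and 32 lower, and with selenite + β-CYP against control 16 were higher and 28 lower. These were 59.4%, 62.3% and 63.8% of the 69, where 16.3%, 23.9% and 28.9% of all genes tested passed, and 32.5%, 46.2% and 53.1% of those at 500 scaled counts or more. Their median log2 changes were 0.03, -0.14 and -0.10. The surplus of lower genes in the last 2 comparisons depended on the scaling: with equal library totals the split was 17 higher and 17 lower in the second comparison and 21 higher and 20 lower in the third, and under quantile normalization it was 15 higher and 22 lower in the second and 23 and 23 in the third. Equal totals shifted the median log2 change of all genes tested to 0.14 and 0.16 in these 2 comparisons. Of the calls given below, those of Apoc1, Apoc4, Dgat2, Gpihbp1 and Nr1h3 with selenite + β-CYP against β-CYP and those of Creb3l3, Soat2, Abcg1 and Abcg8 with β-CYP against control did not pass with equal totals.

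Among the other apolipoproteins, 4 of 7 rose with β-CYP and none fell, under each of the 4 scalings tried. They were Apon (log2 change 0.39 ± 0.03, limma adjusted p = 3.51e-06), Apoh (0.26), Apof (0.25), which modulates lipid transfer, and Apom (0.21), the HDL carrier of sphingosine 1-phosphate. With selenite + β-CYP against β-CYP, 6 of 7 fell and none rose, among them Apof (-0.41 ± 0.02, limma adjusted p = 1.26e-06), Apon (-0.38), Apom (-0.31) and Apoc1 (-0.27), but only 3 passed with equal totals or quantile normalization, and under the latter Apoh and Apoc1 turned positive. Against control, Apof (-0.16) and Apoc1 (-0.19) were lower and Apoh (0.11) higher with selenite + β-CYP, and the split of 1 higher and 3 lower became 3 and 0 with equal totals, 4 and 0 under quantile normalization. Without limma's intensity trend none of the 7 passed (lowest limma adjusted p = 0.0559), and 4 had an unadjusted p under 0.05. Apon had 13274, 13662 and 13444 scaled counts with selenite + β-CYP, 17826, 17507 and 17266 with β-CYP, and 13209, 13690 and 13145 in controls, so the β-CYP libraries alone stood apart. Apoc2, the activator of lipoprotein lipase, had 5746, 1125 and 585 scaled counts with selenite + β-CYP, 877, 851 and 1167 with β-CYP and 355, 104 and 643 in controls, and passed in no comparison. Its log2 change with selenite + β-CYP against control was 2.43 ± 0.82 (limma adjusted p = 0.0522), and it passed without selenite + β-CYP replicate 3 (3.14, limma adjusted p = 0.0289) or control replicate 3. Calls of 2 genes depended on single libraries: Apom with selenite + β-CYP against control (-0.10) was lost without control replicate 1 (limma adjusted p = 0.0679) and selenite + β-CYP replicate 3, and Apoc4 with selenite + β-CYP against β-CYP (-0.33) was lost in 7 of the 9 omissions of 1 library, reaching 0.136 without selenite + β-CYP replicate 2.

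Genes of assembly and secretion were divided. With β-CYP 5 of 15 were higher and 4 lower than in controls, with selenite + β-CYP 1 was higher and 8 lower than with β-CYP, and 6 were higher and 6 lower than in controls. With equal totals these became 1 and 3, 3 and 4, and 7 and 5, and under quantile normalization 5 and 3, 4 and 5, and 7 and 5. The first was 1 and 2 without the intensity trend and 2 and 3 without control replicate 3. Ces1d, a hydrolase of stored triglyceride, was the lowest of the role in both comparisons of selenite + β-CYP. It had 3649, 3402 and 3376 scaled counts with selenite + β-CYP, 7369, 6803 and 7060 with β-CYP, and 8173, 8364 and 8131 in controls. Its log2 change was -1.03 ± 0.04 with selenite + β-CYP against β-CYP (limma adjusted p = 7.46e-08) and -0.22 with β-CYP against control. A1cf, the partner of the Apob mRNA editing enzyme Apobec1, fell by 0.45 with β-CYP against control and by 0.86 with selenite + β-CYP against control on the log2 scale, and Apobec1 was higher in the latter comparison (0.41 ± 0.09, limma adjusted p = 0.00795). Tm6sf2 (-0.78) and Cideb (-0.48), both needed for the lipidation of VLDL, were lower with selenite + β-CYP than with β-CYP. Dgat2, the last step of triglyceride synthesis, was lower with β-CYP than in controls (-0.29) and lower again with selenite + β-CYP (-0.53 against control). Its difference between the 2 groups given β-CYP, -0.24, turned to 0.02 under quantile normalization. Soat2, which esterifies cholesterol, was at 0.31 with β-CYP against control, a call lost in 4 of 9 omissions of 1 library with an adjusted p of 0.0987 without β-CYP replicate 1, and at 0.32 with selenite + β-CYP against control, a call lost in 3 of 9.

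The largest called difference in this list was that of Angptl8, among the lipases and their regulators. Angptl8, a secreted inhibitor of lipoprotein lipase, had 884, 722 and 792 scaled counts with selenite + β-CYP, 371, 372 and 391 with β-CYP, and 210, 268 and 270 in controls. The 3 groups did not overlap, and the log2 changes were 0.61 ± 0.11 with β-CYP against control (limma adjusted p = 0.00452), 1.07 ± 0.11 with selenite + β-CYP against β-CYP (limma adjusted p = 7.76e-05) and 1.68 ± 0.11 with selenite + β-CYP against control (limma adjusted p = 2.61e-06). The endothelial lipase Lipg (-0.88), the lysosomal lipase Lipa (-0.56) and the hepatic lipase Lipc (-0.40) were all lower with β-CYP than in controls, and lower too with selenite + β-CYP than in controls (-0.86, -0.76 and -0.30, the last lost with equal totals). Lpl passed in no comparison, at 0.06 with selenite + β-CYP against control (limma adjusted p = 0.527). Gpihbp1, which anchors lipoprotein lipase to capillaries, was higher with β-CYP than in controls (0.48 ± 0.10, limma adjusted p = 0.00881), and its deficit with selenite + β-CYP against β-CYP (-0.39) was lost without selenite + β-CYP replicate 2 (limma adjusted p = 0.0664), β-CYP replicate 1 or β-CYP replicate 2.

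Among receptors and uptake genes, with β-CYP 2 of 12 were higher and 5 lower than in controls, and with selenite + β-CYP 6 were higher and 2 lower than with β-CYP, a surplus also present with equal totals (6 and 1) and quantile normalization (5 and 1). Vldlr, a receptor that binds Apoe-carrying particles, had 89.3, 69.2 and 87.2 scaled counts with selenite + β-CYP, 56.2, 32.7 and 51.8 with β-CYP, and 111, 104 and 106 in controls. The 3 groups did not overlap, with log2 changes of -1.21 ± 0.22 with β-CYP against control (limma adjusted p = 0.00404) and 0.82 ± 0.22 with selenite + β-CYP against β-CYP (limma adjusted p = 0.0220). The second of these calls was lost without selenite + β-CYP replicate 1 (limma adjusted p = 0.0753) or replicate 3, under quantile normalization and in the fit of the 6 libraries compared. Lrp1, a remnant receptor, went the other way, at 0.31 with β-CYP against control and -0.37 with selenite + β-CYP against β-CYP. With selenite + β-CYP against control Lrp1 was at -0.06 (limma adjusted p = 0.393), which turned to 0.23 under quantile normalization. Lsr, a receptor of triglyceride-rich particles, was higher with selenite + β-CYP than with β-CYP (0.28) and than in controls (0.34), and the proteoglycan Sdc1 was lower in both groups given β-CYP than in controls (-0.41 with selenite + β-CYP and -0.35 with β-CYP).

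**Figure D5:**
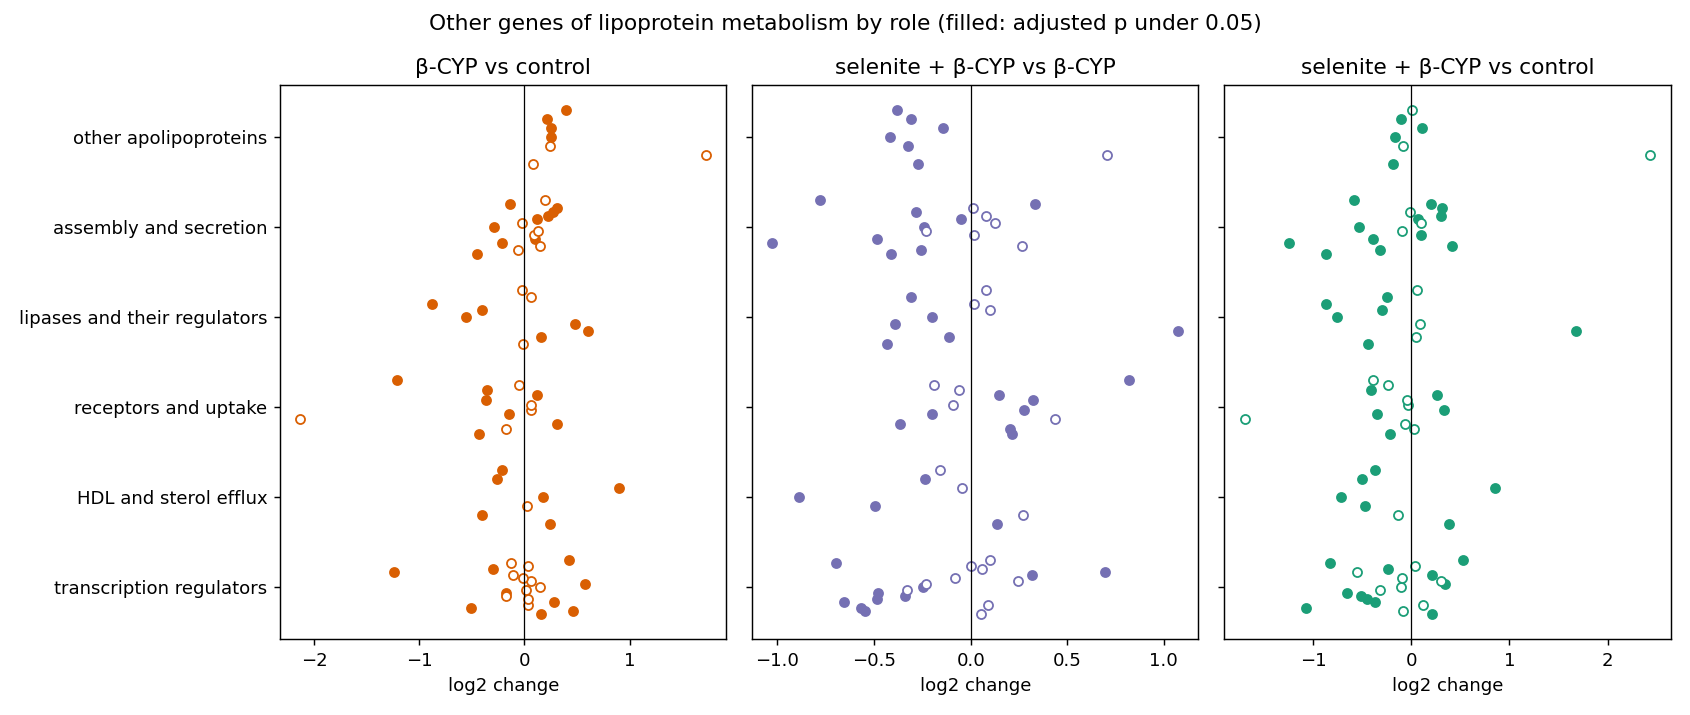
Log2 change (horizontal axis) of 69 other genes of lipoprotein metabolism, 1 point per gene, grouped by role in the 3 comparisons; filled points passed the adjusted threshold. Filled points of the other apolipoproteins lie above 0 in the first panel (4 genes) and below 0 in the second (6 genes), and the receptors show the opposite split in these panels (2 above and 5 below, then 6 above and 2 below).

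Among genes of HDL and sterol efflux, Abca1, the exporter that lipidates Apoa1, had 8467, 8643 and 8586 scaled counts with selenite + β-CYP, 7797, 7654 and 7915 with β-CYP, and 6439, 6833 and 6417 in controls. It was higher in each step, with log2 changes of 0.25 ± 0.03 with β-CYP against control (limma adjusted p = 3.79e-04) and 0.14 ± 0.03 with selenite + β-CYP against β-CYP (limma adjusted p = 0.00907). The transporters that send sterol into bile, Abcg8 (-0.89) and Abcg5 (-0.49), were lower with selenite + β-CYP than with β-CYP. Pla2g7, the phospholipase carried on lipoproteins, was higher than control in both groups given β-CYP (0.85 with selenite + β-CYP and 0.90 with β-CYP), and Pon1, the paraoxonase of HDL, was lower (-0.50 and -0.26). The difference of Abcg8 with β-CYP against control (0.18) was lost in 7 of 9 omissions of 1 library, reaching an adjusted p of 0.119 without β-CYP replicate 1, and that of Abcg1 (-0.41) was lost in 6 of 9.

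Of 19 transcription regulators, 5 were higher and 4 lower with β-CYP than in controls, 2 were higher and 8 lower with selenite + β-CYP than with β-CYP, and 4 were higher and 7 lower with selenite + β-CYP than in controls. With equal totals these became 4 and 3, 4 and 6, and 5 and 6. Hnf4a, a nuclear receptor known to act on many apolipoprotein genes, had 16372, 16866 and 16965 scaled counts with selenite + β-CYP, 26768, 25366 and 26969 with β-CYP, and 21673, 21718 and 21544 in controls. Its log2 change was 0.28 ± 0.03 with β-CYP against control (limma adjusted p = 6.24e-05). With selenite + β-CYP against β-CYP it was -0.66 ± 0.03 (limma adjusted p = 1.07e-07). Its order of groups had β-CYP highest, control between and selenite + β-CYP lowest. By group means, Apoa2, Apob and Lcat had this order, as did Alb, Apof, Apom, Apoc1 and Apoc4. Other apolipoprotein and assembly genes did not. Apoa1, Apoa4, Apoc3, Mttp, Pltp, Apoh, Apon and Apoc2 had control lowest, and Apoa5 and Apoe had β-CYP lowest. For Apoa2 the log2 change with selenite + β-CYP against control was 0.01 with equal totals and 0.00021 under quantile normalization. Under quantile normalization those of Apof and Apom in this comparison turned to 0.12. A link between Hnf4a and these genes was not tested. Creb3l3, which in mice acts on Apoa4, was higher with β-CYP than in controls (0.16 ± 0.03, limma adjusted p = 0.00983) and higher with selenite + β-CYP than in controls (0.21 ± 0.03, limma adjusted p = 9.68e-04). It was at 0.06 with selenite + β-CYP against β-CYP (limma adjusted p = 0.29). A link between Creb3l3 and the Apoa4 values was not tested. Foxo1 was lower at each step (-0.51 with β-CYP against control and -0.57 with selenite + β-CYP against β-CYP). Srebf1, a regulator of lipid synthesis, was lower with selenite + β-CYP than with β-CYP (-0.70), as was the clock repressor Nr1d1 (-0.48). The bile acid receptor Nr1h4 was higher with β-CYP than in controls (0.57), and its comparison of selenite + β-CYP with β-CYP (-0.23, limma adjusted p = 0.0693) passed without selenite + β-CYP replicate 3 (-0.34, limma adjusted p = 0.0016). Ppargc1b, a coactivator, was lower with β-CYP than in controls (-1.24 ± 0.22, limma adjusted p = 0.00376), and its higher level with selenite + β-CYP than with β-CYP (0.69) was lost in 7 of 9 omissions of 1 library, reaching an adjusted p of 0.164 without selenite + β-CYP replicate 3. Nr1h3, a receptor for oxysterols, was lower with selenite + β-CYP than with β-CYP (-0.25, limma adjusted p = 0.0119).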

How the data were processed

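The authors deposited 1 table of log2 values for 9 liver libraries. Per the labels' protocols, Trizol was used for RNA and a TruSeq kit for the libraries. The design text names an Illumina HiSeq 3000 and the library protocol a BGISEQ500. HISAT, Cufflinks and mm9 are named in the submitters' processing notes, without versions or roles, and the sources used here give no annotation, counting tool or strand setting. Each deposited log2 value equals log2(scaled count + 1), where the scaled count is a whole number of reads over its library's median-of-ratios factor. Undoing this gave whole reads, within 0.02, for 100% of values in every library.

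A model of 3 group means was fitted with limma 3.58.1 in R 4.3.3 to log2(scaled count + 1) over all 9 libraries, keeping genes whose scaled counts averaged 1 or more, with an intensity trend, a two-sided test and Benjamini-Hochberg adjustment at 0.05. The pseudocount of 1 understates changes of low genes. The script was tested on simulated data. The 10 genes, the gene lists and the alternatives were chosen with earlier results of these data known. Pathway genes to be named were, for each comparison and role, up to 3 non-overlapping genes with the largest called change, plus 11 set genes; some of the genes so chosen are not reported here. No 2 libraries were duplicates: chi-square per degree of freedom within groups was 9.53 to 222. Same-numbered libraries of 2 groups did not deviate together, so no pairing was used. Exon lengths and overlaps came from GENCODE M21 (GRCm38), which matched 25731 of 25781 identifiers, and promoter windows from RefSeq GRCm38.p6, which held 9 of the 10 genes.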

Additional observations from a re-analysis of the deposited data

How the results depend on the processing

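Each result was recomputed under 20 alternative settings: 3 other scalings, 2 other pseudocounts, 2 other filters, no intensity trend, voom weights on the whole reads, a fit of the 6 libraries compared, a replicate block, and the omission of each library in turn. Numbers of called genes among all genes and the pathway list stayed within 1.5 times the reported number. Among the 10 genes, with selenite + β-CYP against β-CYP 6 were called, but 2 with equal library totals and 3 under quantile normalization, and with selenite + β-CYP against control 4 were called, but 8 under quantile normalization. By role, the moves over 1.5 times were: with β-CYP against control, assembly and secretion from 9 to 4 with equal totals, 3 without the intensity trend and 5 without control replicate 3, and HDL and efflux from 6 to 3 with equal totals, in the fit of 6 libraries and without control replicate 1 or 2 or β-CYP replicate 1 or 3; with selenite + β-CYP against β-CYP, other apolipoproteins from 6 to 3 with equal totals or quantile normalization and lipases from 6 to 3 with equal totals; and with selenite + β-CYP against control, other apolipoproteins from 4 to 0 without the intensity trend. On omitting 1 library, 6 to 7, 4 to 6 and 4 to 6 of the 10 genes were called in the 3 comparisons (β-CYP against control, selenite + β-CYP against β-CYP, selenite + β-CYP against control), 34 to 40, 38 to 42 and 42 to 45 of the pathway genes, and 2668 to 3227, 3989 to 4749 and 4994 to 5698 of all genes. With equal totals, 70.8% of calls were higher in the second comparison against 48.6% with the deposited scaling, and 69.3% in the third against 49.9%. Log2 changes that turned round were, under quantile normalization, Apob in the first comparison (-0.35), Apoa4 (0.0692), Apoa1 (0.0656), Lcat (0.0096), Apob (0.0693), Mttp (0.28), Apoh (0.0676), Dgat2 (0.0226) and Apoc1 (0.11) in the second, and Apoa2 (0.00021), Lcat (0.22), Apof (0.12), Lrp1 (0.23), Apoc1 (0.12) and Apom (0.12) in the third. With equal totals they were Apoa1 (0.0370) and Apob (0.0247) in the second and Apoa2 (0.0104) and Apom (0.0355) in the third. A change of sign in a value called in neither fit was not counted. The cause was not tested. Apoa2 and Lcat with β-CYP against control were also lost without the intensity trend (adjusted p = 0.208 and 0.0612). So were Apoa1 and Apob with selenite + β-CYP against β-CYP, and Apoa2 with selenite + β-CYP against control. The replicate numbers did not pair the libraries, with correlations of same-numbered deviations from -0.0368 to 0.0722, and a fit with the replicate block called 6, 6 and 4 of the 10 genes, 35, 42 and 44 pathway genes and 2956, 4481 and 5506 of all genes. With 28630269 reads or more per library, counting error among the 10 genes was largest for Pltp (3.90% in controls), and the spread between libraries was largest for Apoe, Apoc3 and Apoa5.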
